A study of Homo sapiens with 12 samples.

Results

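The collagen chain genes were examined in CAL27 and HSC3 cells, established HPV-negative head and neck squamous cell carcinoma (HNSCC) lines, without and with induction of an shRNA against MUC1. Members were all rows of the count tables whose symbol is COL, a number, A and a number, which took 44 of the 39368 symbols of each table. Another 9 symbols that start with COL are antisense or divergent transcripts or pseudogenes and were left out.

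Both lines carry the tet-MUC1shRNA vector, from which doxycycline (DOX) induces the hairpin, so the control cells of each line held the same vector. CAL27/tet-MUC1shRNA cells and HSC3/tet-MUC1shRNA cells were treated with vehicle (0.1% DMSO) or with 500 ng/ml DOX for 7 days, and 3 libraries were sequenced in each of the 4 groups. DOX-treated cells with a control hairpin were not analysed here, so effects of MUC1 silencing and of DOX or hairpin induction as such cannot be told apart. The libraries are replicates as labelled, and p-values measure the spread between them. In bulk RNA of this kind, fewer cells of a type and less RNA per cell cannot be told apart.

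Collagens are secreted or membrane proteins in which 3 chains wind into a triple helix, and each chain has its own gene. Fibrillar collagens build the fibers of the stroma, type IV collagen builds the sheet of the basement membrane, and FACIT collagens sit on the surface of fibrils. In squamous epithelium the basal cells are tied down by hemidesmosomes, which contain type XVII collagen, and by anchoring fibrils of type VII collagen below them. Stromal fibroblasts make most fibrillar collagen of a tumor, so these cultures show what the carcinoma cells transcribe without them.

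Libraries summed to 92866845 to 126328662 counts in CAL27 cells and to 89730914 to 169065103 in HSC3 cells. By an estimate from genes without a count, several counts stood for 1 molecule. The estimate was 2.45 to 3.33 counts per molecule in the CAL27 libraries, 4.18 to 7.43 with vehicle and 8.93 to 17.2 with DOX in HSC3 cells, so a count of 20 in an HSC3 DOX library can be 1 or 2 molecules. MUC1, the target of the hairpin, fell by 4.21 (SE 0.067, adjusted p = 1.62e-19) in CAL27 and by 2.88 (SE 0.38, adjusted p = 0.000202) in HSC3 cells in log2 units by edgeR. With vehicle, the log2 difference of MUC1 between HSC3 and CAL27 cells was -4.98. The HSC3 minus the CAL27 log2 change with DOX was 1.36, past the edgeR test of the interaction. It did not pass with counts divided by counts per molecule (edgeR adjusted p = 0.0965). The lines thus differed in the level of the target and in its fall, and the part of this in the collagen differences was not tested. All 8 markers of squamous epithelium were counted in both lines. Their summed level was 8113 to 8299 CPM (counts per 1000000 counts of the library) with vehicle and 4070 to 4249 with DOX in CAL27 cells, and 6713 to 7346 and 3653 to 4239 in HSC3 cells. KRT5, KRT14, KRT17 and TP63 fell and EPCAM rose in both lines, DSP fell in CAL27 cells alone, and CDH1 and SFN passed in neither. Fibroblast markers were low. Their 6 genes summed to 3.35 to 3.98 CPM with vehicle and 1.13 to 1.40 with DOX in CAL27 cells, and to 1.81 to 2.47 and 1.47 to 2.03 in HSC3 cells. Decorin (DCN) reached at most 8 counts in a CAL27 library and was at 0 in all 6 HSC3 libraries. The 3 endothelial markers summed to 16.5 to 16.7 and 9.76 to 13.3 CPM in CAL27 cells, nearly all of it CDH5, and the 3 leukocyte markers to 5.19 to 5.66 and 3.95 to 4.998. In HSC3 cells the endothelial markers summed to at most 0.475 CPM. The squamous and endothelial sums were lower with DOX in both lines and the fibroblast and leukocyte sums in CAL27 cells, and their part in the results was not tested.

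Levels are compared between genes per length, as RPKM (CPM, normalized within each line, per kilobase of annotated exon). Of the 44 chains, 31 had enough counts to be tested in each line. There were 28 tested in both, COL1A2, COL21A1 and COL4A2 in CAL27 cells alone, and COL2A1, COL11A1 and COL23A1 in HSC3 cells alone. The remaining 10 were tested in neither line. COL3A1, COL9A1 and COL22A1 had no count in any of the 12 libraries. COL6A5, COL14A1, COL19A1, COL20A1, COL24A1, COL25A1 and COL26A1 had 0 to 22 counts per library. COL3A1 makes type III collagen, a main fibrillar collagen of stroma. With vehicle, 14 CAL27 and 10 HSC3 chains were at 1 RPKM or more, and another 10 in each line lay from 0.1 to under 1.

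COL17A1, the transmembrane chain of hemidesmosomes, was the highest in both lines. Its level was 61.04 ± 0.610 RPKM (mean ± SD, n = 3) in vehicle-treated CAL27 cells and 207 ± 3.84 in HSC3 cells. It made up 46.6% ± 0.577 of the summed RPKM of all 44 chains in CAL27 and 83.4% ± 0.0254 in HSC3 cells. The next in CAL27 cells were COL5A1 at 12.5 ± 0.514 and COL12A1 at 11.5 ± 0.244 RPKM, and then COL6A1 at 7.62 ± 0.253 and COL4A2 at 7.47 ± 0.0738. COL4A1, COL27A1, COL18A1 and COL7A1 followed between 3.97 and 5.71, and COL4A5, COL6A2, COL16A1, COL9A3 and COL1A1 between 1.03 and 2.48. Within that order, COL5A1 and COL12A1 differed by more than the sum of their SDs, whereas COL6A1 and COL4A2, and COL27A1, COL18A1 and COL7A1 differed by less than that. These SDs do not cover the choice of exon length, on which the order between genes and the share of COL17A1 in the sum also depend. By CPM, without length, COL12A1 at 218 was above COL5A1 at 139, and COL4A2 at 144 was above COL6A1 at 42.2. In HSC3 cells COL17A1 was followed by COL4A5 at 9.10 ± 0.285, COL4A6 at 6.35 ± 0.147, COL7A1 at 5.91 ± 0.6004 and COL5A1 at 4.60 ± 0.0784 RPKM. COL4A6 and COL7A1 differed by less than the sum of their SDs, and so did COL16A1 and COL12A1, both near 2.39. The order of both lines thus put an epithelial membrane collagen first. COL1A1 of the stromal type I fibrils had rank 14 in both, at 1.03 ± 0.0703 RPKM in CAL27 and 0.464 ± 0.0325 in HSC3 cells. Other chains linked to fibrils stood higher, with COL5A1 at rank 2 in CAL27 and 5 in HSC3 cells and COL12A1 at rank 3 and 8.

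**Figure D1:**
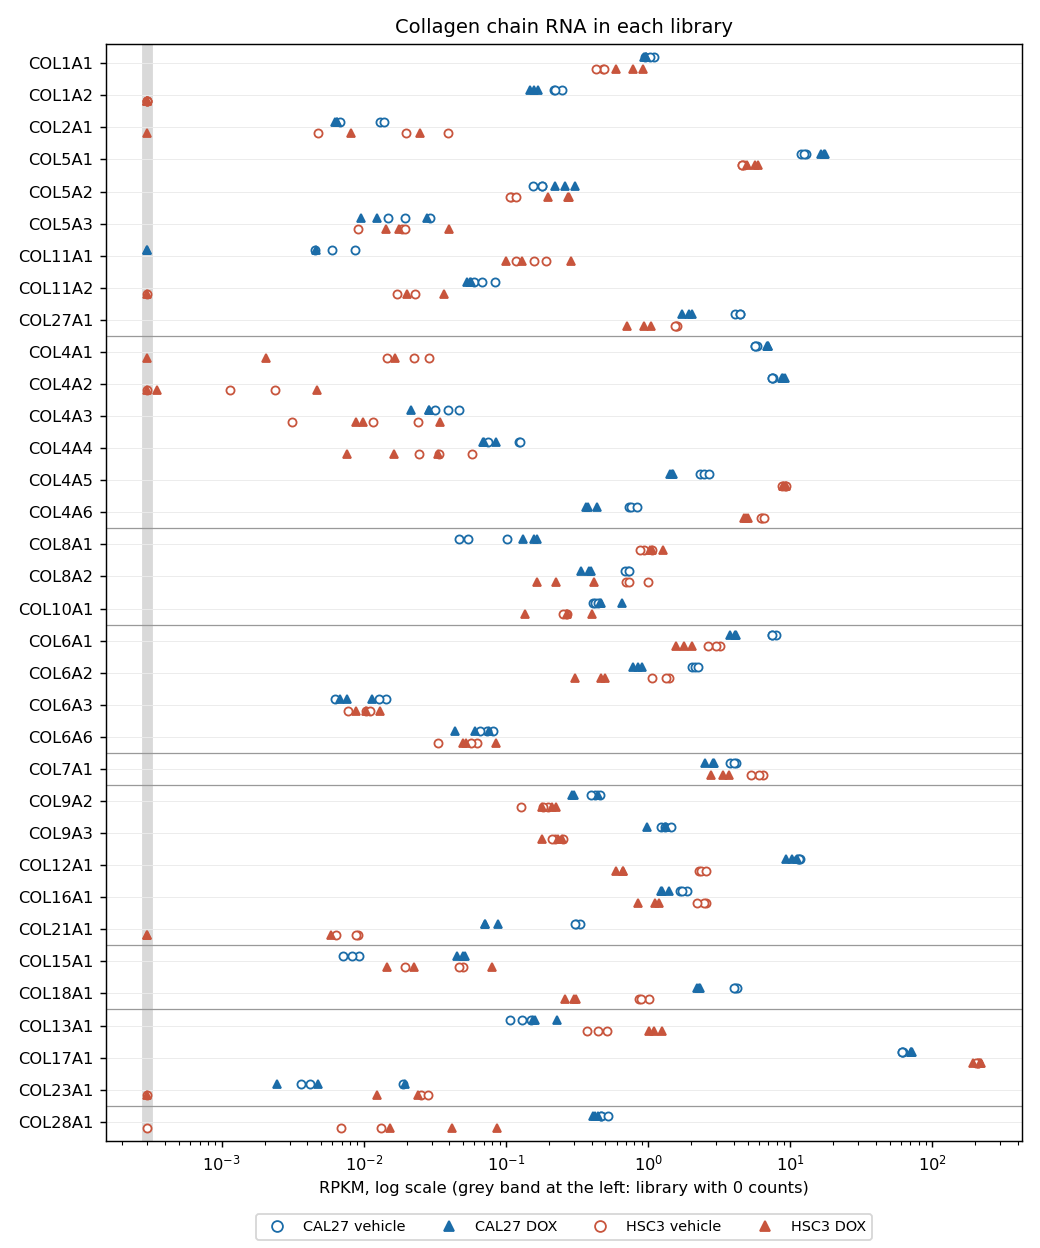
RPKM on a log axis of the 34 chains tested in at least 1 line, by family, in each of the 12 libraries, with libraries at 0 counts in the grey band. COL17A1 lay furthest right in both lines, COL4A1 and COL4A2 were near 6 to 9 RPKM in CAL27 cells and near 0 in HSC3 cells, and COL1A2 was at 0 in all HSC3 libraries.

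The lines differed without DOX. Among the 34 chains that entered the fit of all 12 libraries, 13 were lower and 7 higher in vehicle-treated HSC3 than in vehicle-treated CAL27 cells at an edgeR adjusted p under 0.05 and a fold over 2. Over all 20694 genes tested, 18.7% were lower and 13.2% higher by the same rule. The median log2 difference was -0.45 over the chains and -0.12 over all genes. Scaling to library totals in place of TMM moved the latter to -0.39 and the former to -0.72. The chain median was -1.09 without a filter on low counts and -1.12 with counts divided by counts per molecule, beside -0.24 and -0.061 over all genes. The lower chains were COL4A1, COL4A2, COL4A4, COL1A2, COL5A1, COL27A1, COL9A2, COL9A3, COL12A1, COL21A1, COL6A1, COL18A1 and COL28A1, and the higher ones COL17A1, COL13A1, COL4A5, COL4A6, COL8A1, COL11A1 and COL15A1. Among the chains near or above 1 RPKM in both lines, COL12A1 was lower by 1.99 (SE 0.070, edgeR adjusted p = 1.15e-12) on the log2 scale. COL18A1 was lower by 1.88, COL27A1 by 1.18, COL5A1 by 1.16 and COL6A1 by 1.10. COL17A1 was higher by 2.04 (SE 0.050, edgeR adjusted p = 2.74e-14) and COL4A5 by 2.15 (SE 0.060, edgeR adjusted p = 1e-13). COL4A6 is taken up below. COL11A1, a fibrillar chain known from cartilage, had the widest gap upward, at 0.156 against 0.00641 RPKM. The difference of 4.83 (SE 0.61, edgeR adjusted p = 3.77e-06) on the log2 scale rests on only 10, 4 and 6 counts in the CAL27 vehicle libraries. Each line was deposited as its own table, and the paper gives DMEM as the medium of CAL27 cells and minimum essential medium for HSC3 cells. Line, medium and table thus cannot be told apart, here or where DOX responses are compared between the lines. These contrasts share their vehicle libraries with the DOX comparisons below.

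A wide gap between the lines was in type IV collagen, the network of the basement membrane. COL4A1 and COL4A2 encode the chains found in nearly all basement membranes. COL4A5 and COL4A6 encode chains that join them under many epithelia, skin included, and COL4A3 and COL4A4 are best known from kidney. These genes lie head to head in pairs. COL4A1 (chr13:110148963-110307157, minus strand, GRCh38) and COL4A2 (chr13:110305812-110513209, plus strand) run on opposite strands in GENCODE v44, where their outermost transcripts overlap, and COL4A6 (chrX:108155607-108439497, minus) and COL4A5 (chrX:108439838-108697545, plus) do so without overlap. In RefSeq, the starts of COL4A1 and COL4A2 are separated by 126 bases and those of COL4A6 and COL4A5 by 379. The COL4A1 to COL4A2 interval (chr13:110307158-110307283) and the 250 bases before COL4A5 (chrX:108439588-108439837) are shown because the pairs differed between the lines in opposite directions. The end of the first lies in the first exon of some GENCODE v44 COL4A2 transcripts. They are read 5′ to 3′ on the plus strand of GRCh38.p14, with CCAAT and GGGCGG (a GC box) in capitals where they occur on either strand.
COL4A1-COL4A2: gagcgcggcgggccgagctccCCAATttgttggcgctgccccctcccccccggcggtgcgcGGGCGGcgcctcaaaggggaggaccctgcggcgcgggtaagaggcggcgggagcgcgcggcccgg
COL4A5: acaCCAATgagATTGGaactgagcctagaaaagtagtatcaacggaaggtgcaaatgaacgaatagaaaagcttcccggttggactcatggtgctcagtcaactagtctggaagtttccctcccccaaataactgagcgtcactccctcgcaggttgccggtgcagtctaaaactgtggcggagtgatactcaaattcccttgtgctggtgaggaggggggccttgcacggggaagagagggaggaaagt
The COL4A1 to COL4A2 interval held 1 CCAAT and 1 GGGCGG, and COL4A5 held 2 CCAAT and no GGGCGG. Of all 35116 RefSeq promoter windows, 21.1% and 34.6% held these words at the shorter length and 32.0% and 42.6% at the longer. TATAAA was in neither sequence and in 5.87% and 10.7% of windows.

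In CAL27 cells COL4A1 had 82.3, 85.99 and 82.8 CPM under vehicle and 101, 102 and 102 under DOX. COL4A2 had 143, 145 and 143 and 170.3, 176 and 168. For both, every DOX library lay above every vehicle library. The rise was 0.28 (SE 0.039, adjusted p = 5.31e-06) for COL4A1 and 0.25 (SE 0.037, adjusted p = 9.86e-06) for COL4A2 by edgeR on the log2 scale, a fold of 1.21 and 1.19. Both lost significance when all 12 libraries shared 1 estimate of the spread (adjusted p = 0.366 and 0.178). Their RPKM ratio, COL4A2 over COL4A1, was 1.31 ± 0.0202 with vehicle and 1.28 ± 0.0282 with DOX, which overlap.

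In HSC3 cells the pair was nearly absent. COL4A1 had 42, 38 and 28 counts under vehicle and 40, 0 and 4 under DOX, and COL4A2 had 0, 2 and 6 and 0, 1 and 12. The vehicle levels of COL4A1 and COL4A2 were lower than in CAL27 cells by 7.79 (SE 0.30) and 12.28 (SE 0.28) on the log2 scale (adjusted p = 3.81e-12 and 1.09e-14 by edgeR), the latter set by 8 counts in all. The DOX change of COL4A1 in HSC3 cells was -1.79 (SE 1.19, adjusted p = 0.315) on those few counts. Without HSC3 DOX replicate 1, which held 40 of the 44 DOX counts, it was -4.37 with an edgeR adjusted p of 0.00907, and in 1 fit of all 12 libraries it was -1.65 with an adjusted p of 0.0331.

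COL4A5 and COL4A6 had the opposite distribution. COL4A5 was at 2.48 ± 0.180 RPKM in CAL27 and 9.10 ± 0.285 in HSC3 cells with vehicle, and COL4A6 at 0.772 ± 0.0519 and 6.35 ± 0.147. In the edgeR fit of all 12 libraries, which scales the lines together, the log2 difference was 2.15 (SE 0.060, adjusted p = 1e-13) for COL4A5. For COL4A6 it was 3.32 (SE 0.076, adjusted p = 1.14e-14). With DOX, COL4A5 in CAL27 cells went from 27.5, 29.3 and 31.7 CPM to 17.7, 17.4 and 17.01, and in HSC3 cells from 104, 109 and 111 to 109.9, 107 and 105. The groups were apart in CAL27 cells and overlapped in HSC3 cells. The fall in CAL27 cells was 0.76 (SE 0.060, adjusted p = 2.34e-09) on the log2 scale by edgeR, while the HSC3 estimate was -0.011 with an SE of 0.060. The responses of the lines differed by 0.76 (SE 0.082, adjusted p = 1.16e-05) in the interaction of line and DOX.

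COL4A6 moved down in both. It went from 6.76, 7.04 and 7.70 CPM to 3.503, 4.03 and 3.40 in CAL27 cells and from 58.9, 57.6 and 60.3 to 44.03, 46.5 and 45.4 in HSC3 cells, with no overlap of the groups in either. The fall was 0.98 (SE 0.10, adjusted p = 1.13e-07) in CAL27 and 0.38 (SE 0.068, adjusted p = 0.00156) in HSC3 cells in log2 units by edgeR, and the interaction was 0.60 (SE 0.10, adjusted p = 0.000627). The RPKM ratio of COL4A5 to COL4A6 went from 3.22 ± 0.0345 to 3.74 ± 0.320 in CAL27 cells and from 1.43 ± 0.0445 to 1.85 ± 0.0838 in HSC3 cells. COL4A3 and COL4A4 were at most at 0.126 RPKM in any library. Neither passed the test for DOX in either line, with edgeR adjusted p from 0.0598 to 0.777.

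**Figure D2:**
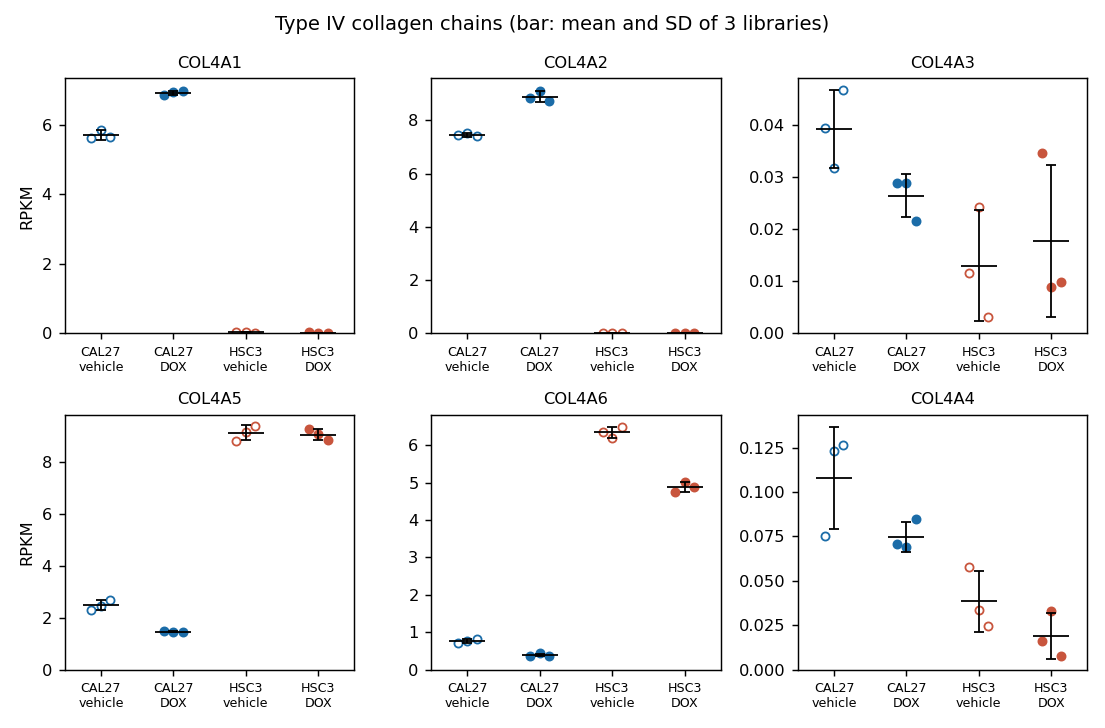
RPKM of the 6 type IV collagen chains in each library, with the mean and SD of 3 libraries per group. COL4A1 and COL4A2 had 5.71 and 7.47 RPKM in vehicle-treated CAL27 cells and near 0 in HSC3 cells, COL4A5 and COL4A6 were higher in HSC3 cells, and COL4A6 was lower with DOX in both lines.

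Over the whole family, more chains fell than rose with DOX in both lines. In CAL27 cells 12 of 31 tested chains fell and 8 rose at an edgeR adjusted p under 0.05, and 11 did not pass. Over all 19239 genes tested, 21.8% fell and 22.6% rose. With a fold over 2 as well, COL21A1, COL6A2 and COL27A1 were lower and COL15A1 and COL8A1 higher, against 5.11% and 1.31% of all genes. The median log2 change was -0.34 over the tested chains and -0.0052 over all genes.

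In HSC3 cells 9 of 31 tested chains fell and 4 rose at an adjusted p under 0.05, and 18 did not pass, against 15.4% and 13% of 18021 genes. With a fold over 2, COL12A1, COL18A1, COL6A2, COL8A2 and COL16A1 were lower and COL13A1 and COL5A2 higher, against 4.4% and 1.58%. The median over the tested chains was 0.0013, against -0.0097 over all genes. In CAL27 cells all DOX libraries lay below all vehicle libraries for 15 tested chains and above for 9, against 26.3% and 26% of all genes tested, and in HSC3 cells for 9 and 5, against 22.8% and 19.8%.

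Every chain that fell in HSC3 cells also fell in CAL27 cells. These 9 were COL4A6, COL6A1, COL6A2, COL7A1, COL8A2, COL12A1, COL16A1, COL18A1 and COL27A1, which is 9 of the 10 CAL27 decreases among chains tested in both lines. Among the 17164 genes tested in both lines, 54.4% of HSC3 decreases and 39.3% of CAL27 decreases were shared. COL5A1, COL5A2 and COL13A1 rose in both, 3 of the 4 HSC3 and of the 7 CAL27 increases among chains tested in both, against 58% and 31.3% of all genes. No chain moved past the test in opposite directions. In CAL27 cells COL1A2, COL4A5 and COL21A1 fell and COL4A1, COL4A2, COL8A1, COL15A1 and COL17A1 rose without passing the test in HSC3 cells or without enough counts there, and COL1A1 rose past the test in HSC3 cells alone.

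**Figure D3:**
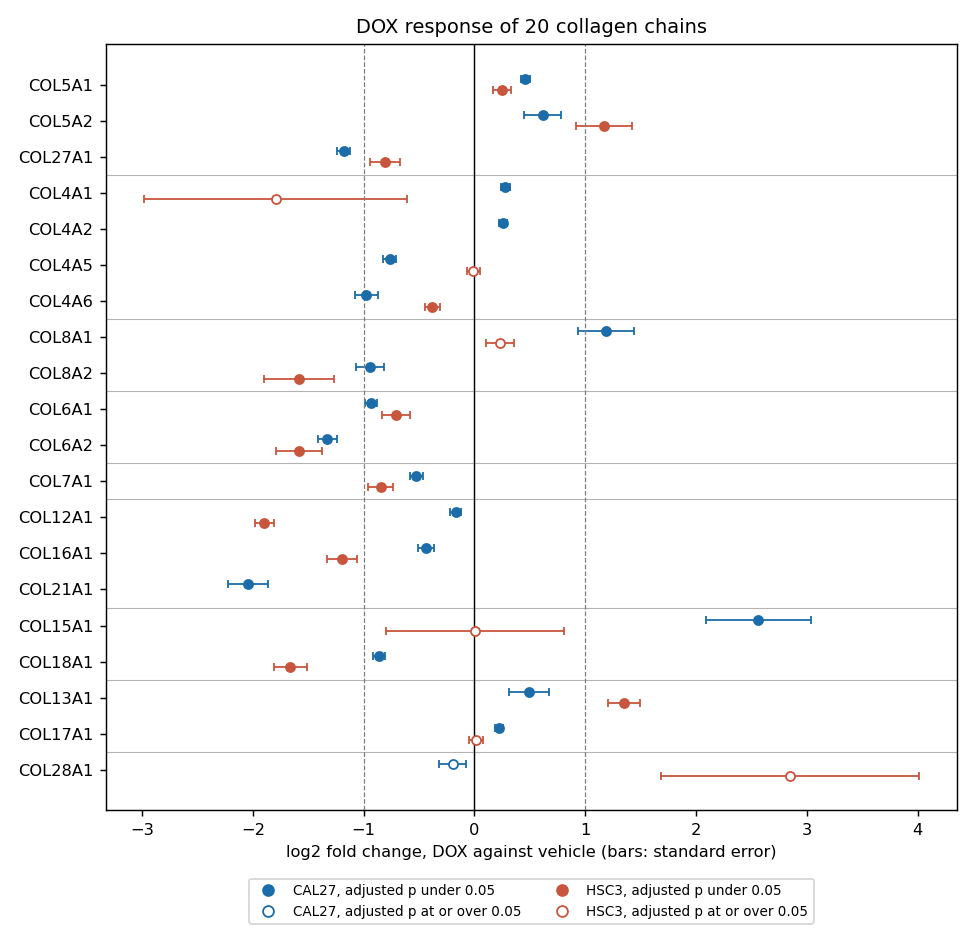
Log2 fold change with its standard error, DOX against vehicle, of the 20 chains described one by one, with CAL27 in blue and HSC3 in red and filled symbols at an edgeR adjusted p under 0.05. COL6A2, COL18A1 and COL8A2 lay left of 0 in both lines, COL12A1 was at -0.17 in CAL27 and -1.90 in HSC3 cells, and COL13A1 and COL5A2 lay right of 0 in both.

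Promoters of 2 chains that fell are shown as the 250 bases before the RefSeq start, in the direction of transcription on GRCh38.p14, with CCAAT and GGGCGG or their reverse complements in capitals. COL6A2 (chr21:46097862-46098111, plus strand) passed a fold of 2 in both lines, and COL27A1 (chr9:114155287-114155536, plus strand) had the largest decrease among the 10 chains with the highest RPKM in CAL27 cells.
COL6A2: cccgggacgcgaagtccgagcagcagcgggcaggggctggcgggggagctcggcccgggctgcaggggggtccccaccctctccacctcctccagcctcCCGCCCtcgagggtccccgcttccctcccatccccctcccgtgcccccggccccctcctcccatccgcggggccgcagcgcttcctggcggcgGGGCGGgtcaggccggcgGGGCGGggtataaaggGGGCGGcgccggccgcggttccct
COL27A1: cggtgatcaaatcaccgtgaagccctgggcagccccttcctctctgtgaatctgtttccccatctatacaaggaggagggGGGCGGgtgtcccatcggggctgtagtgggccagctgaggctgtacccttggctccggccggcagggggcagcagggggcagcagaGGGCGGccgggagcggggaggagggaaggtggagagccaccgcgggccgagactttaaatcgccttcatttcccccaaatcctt
COL6A2 held 4 GGGCGG and 1 TATAAA, COL27A1 held 2 GGGCGG, and neither held CCAAT. The words TTCNNNGAA, the core bound by STAT factors, and TGANTCA, bound by AP-1, were each in 6.57% of all windows of this length and in neither of these sequences, searched on both strands. RefSeq windows were matched for 32 of the 44 chains.

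Type VI collagen forms beaded microfibrils around cells from COL6A1, COL6A2 and another chain such as COL6A3. COL6A1 (chr21:45981770-46005050) and COL6A2 (chr21:46098112-46132848) both lie on chromosome 21, on the plus strand of GRCh38. COL6A2 went from 10.8, 11.4 and 11.9 to 4.54, 4.19 and 4.82 CPM in CAL27 cells and from 7.51, 7.15 and 5.66 to 1.64, 2.47 and 2.66 in HSC3 cells. Neither line had an overlap between groups. The fall was 1.33 (SE 0.085, adjusted p = 1.26e-10) in CAL27 and 1.59 (SE 0.21, adjusted p = 0.000201) in HSC3 cells in log2 units by edgeR, a fold of 2.51 and 3.01, and it was the only chain past a fold of 2 in both.

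COL6A1 went from 41.4, 43.8 and 41.4 to 22.8, 20.98 and 22.4 CPM in CAL27 cells and from 17.7, 16.5 and 14.6 to 8.72, 9.84 and 11.3 in HSC3 cells, again with the groups apart. By edgeR it fell by 0.93 (SE 0.052, adjusted p = 1.27e-11) and 0.71 (SE 0.13, adjusted p = 0.00164) on the log2 scale. The RPKM ratio of COL6A1 to COL6A2 rose from 3.58 ± 0.197 to 4.72 ± 0.197 in CAL27 cells and from 2.32 ± 0.140 to 4.36 ± 0.682 in HSC3 cells, with no test of the ratio made. COL6A3 was at 14 to 41 counts and at most 0.0143 RPKM, and COL6A6 at 37 to 100 counts. The interaction of line and DOX did not pass for any type VI chain.

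COL7A1 builds the anchoring fibrils that tie the epidermal basement membrane to the dermis. It had 42.05, 46.1 and 44.4 CPM under vehicle and 27.7, 32.2 and 32.1 under DOX in CAL27 cells, and 71.6, 67.3 and 58.5 and 30.7, 41.6 and 37.4 in HSC3 cells. All DOX libraries were below all vehicle libraries in both lines. COL7A1 fell by 0.53 (SE 0.058, adjusted p = 3.65e-07) in CAL27 and by 0.85 (SE 0.12, adjusted p = 0.000266) in HSC3 cells in log2 units by edgeR.

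COL17A1 is the hemidesmosome chain above the anchoring fibrils. In CAL27 cells it had 425, 431 and 424 CPM under vehicle and 495, 501 and 492 under DOX, with the DOX libraries above. This rise of 0.22 (SE 0.036, adjusted p = 4.85e-05) by edgeR was a fold of 1.16. In HSC3 cells it had 1468, 1459 and 1418 CPM and 1343, 1530 and 1509, and the groups overlapped. The HSC3 estimate was 0.012 (SE 0.064, adjusted p = 0.918), and the interaction of -0.20 (SE 0.069, adjusted p = 0.048) passed narrowly. The share of COL17A1 in the summed RPKM went from 46.6% ± 0.577 to 52.9% ± 0.735 in CAL27 cells and from 83.4% ± 0.0254 to 86.5% ± 0.282 in HSC3 cells. The sum without COL17A1 went from 70.0 ± 2.02 to 63.1 ± 1.62 RPKM in CAL27 cells and from 41.3 ± 0.834 to 32.5 ± 1.60 in HSC3 cells.

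FACIT collagens do not form fibrils of their own but bind to them and to the surrounding matrix. COL12A1 was the highest of them in RPKM in CAL27 cells, and in HSC3 cells it was level with COL16A1 under vehicle. In HSC3 cells it had 42.9, 44.6 and 47.8 CPM under vehicle and 12.6, 11.2 and 12.6 under DOX, a drop with wide separation of the groups. In CAL27 cells it had 213, 222 and 218 and 176, 193 and 211, where the DOX libraries were lower but 1 came close to the vehicle range. The fall was 1.90 (SE 0.090, adjusted p = 2.09e-07) in HSC3 cells, a fold of 3.72, and 0.17 (SE 0.051, adjusted p = 0.0116) in CAL27 cells on the log2 scale. The interaction was -1.72 (SE 0.097, adjusted p = 2.99e-08), the smallest p of any chain. The CAL27 fall lost significance without CAL27 vehicle replicate 2 (adjusted p = 0.0506) and when 1 fit covered all 12 libraries (adjusted p = 0.0834).

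COL16A1, another FACIT chain, went from 23.4, 22.8 and 20.3 to 7.81, 10.3 and 10.96 CPM in HSC3 cells and from 15.5, 17.3 and 16.1 to 11.4, 11.7 and 13.03 in CAL27 cells. Its groups were apart in both lines. It fell by 1.19 (SE 0.13, adjusted p = 7.27e-05) and 0.44 (SE 0.071, adjusted p = 3.82e-05) on the log2 scale by edgeR, with an interaction of -0.76 (SE 0.16, adjusted p = 0.00288).

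COL21A1 was measured in CAL27 cells alone, with 272, 222 and 232 counts under vehicle and 58, 46 and 57 under DOX, or 2.15, 2.27 and 2.11 and 0.605, 0.493 and 0.488 CPM. The groups were far apart, and the fall of 2.04 (SE 0.18, adjusted p = 1.32e-08) by edgeR, a fold of 4.12, was the largest decrease of any chain in that line. In HSC3 cells it had at most 8 counts in a library. COL9A2 and COL9A3, cartilage FACIT chains, were detected in both lines without passing the test (adjusted p = 0.174 to 0.916).

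Fibrillar chains were split. COL27A1, a fibrillar chain known from cartilage, went from 57.1, 62.2 and 61.8 to 24.2, 28.5 and 27.2 CPM in CAL27 cells and from 22.04, 22.2 and 21.6 to 9.99, 14.6 and 13.02 in HSC3 cells. The groups did not overlap in either. It fell by 1.18 (SE 0.057, adjusted p = 4.86e-12) and by 0.81 (SE 0.13, adjusted p = 0.000919) on the log2 scale by edgeR.

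COL5A1 and COL5A2 make type V collagen, which joins type I fibrils and limits their width. COL5A1 had 133, 145 and 140.0 CPM under vehicle and 185, 192 and 197 under DOX in CAL27 cells, and 50.9, 52.4 and 50.8 and 55.03, 65.6 and 62.7 in HSC3 cells. The DOX libraries were above the vehicle libraries in both lines, by little in HSC3 cells. By edgeR it rose by 0.46 (SE 0.041, adjusted p = 1.42e-08) in CAL27 and by 0.25 (SE 0.079, adjusted p = 0.036) in HSC3 cells in log2 units. The HSC3 rise lost significance without any 1 of the vehicle libraries and without DOX replicate 2 or 3 (adjusted p = 0.102 to 0.124).

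COL5A2 was far less abundant, at 0.172 ± 0.0142 RPKM in vehicle-treated CAL27 and 0.111 ± 0.00557 in HSC3 cells. It had 1.14, 1.32 and 1.32 CPM and 1.92, 1.62 and 2.23 in CAL27 cells, and 0.791, 0.782 and 0.856 and 2.00, 2.03 and 1.45 in HSC3 cells. Here too the DOX libraries lay above. The rise was 0.62 (SE 0.17, adjusted p = 0.00521) and 1.17 (SE 0.25, adjusted p = 0.00504) on the log2 scale by edgeR, and the interaction of 0.56 (SE 0.30, adjusted p = 0.225) did not pass.

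COL1A1 and COL1A2 make type I collagen, the main collagen of stroma. COL1A1 had 4.32, 4.37 and 3.84 CPM under vehicle and 5.37, 7.06 and 8.31 under DOX in HSC3 cells, without overlap, and rose by 0.73 (SE 0.17, adjusted p = 0.00891) on the log2 scale by edgeR. In CAL27 cells it had 8.62, 9.89 and 9.25 and 8.41, 8.70 and 8.72, which overlapped, and a log2 change of -0.10 (SE 0.079, adjusted p = 0.323). The interaction was 0.83 (SE 0.19, adjusted p = 0.00544). COL1A2 had 295, 262 and 263 counts under vehicle and 173, 148 and 198 under DOX in CAL27 cells, a fall of 0.54 (SE 0.14, adjusted p = 0.00358) that was lost when 1 fit covered all 12 libraries (adjusted p = 0.173). In HSC3 cells COL1A2 was at 0 in all 6 libraries, beside 397 to 1106 counts of COL1A1, so no fold is given. COL2A1, COL5A3, COL11A1 and COL11A2 were at most at 0.288 RPKM in any library and did not pass the test for DOX where they were tested (adjusted p = 0.331 to 0.862).

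The multiplexins COL15A1 and COL18A1 lie in basement membranes, and COL18A1 is the source of endostatin. COL18A1 went from 34.6, 35.5 and 33.9 to 19.6, 18.5 and 19.2 CPM in CAL27 cells and from 8.64, 7.28 and 7.49 to 2.21, 2.64 and 2.54 in HSC3 cells. Its groups were apart in both. It fell by 0.86 (SE 0.052, adjusted p = 4.94e-11) and by 1.66 (SE 0.15, adjusted p = 1.45e-05) on the log2 scale by edgeR, and the interaction was -0.80 (SE 0.12, adjusted p = 0.00028). Of its exon bases, 18.5% lie under SLC19A1 on the other strand, and how the counting used strand is not given in the sources used here.

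COL15A1 was rare. It had 6, 6 and 6 counts under vehicle and 32, 28 and 40 under DOX in CAL27 cells, and 42, 28 and 17 and 16, 22 and 70 in HSC3 cells. Only in CAL27 cells were the groups apart, and there it rose by 2.56 (SE 0.47, adjusted p = 0.000147) on the log2 scale by edgeR, a fold of 5.91, to 0.0489 ± 0.00332 RPKM. The HSC3 estimate was 0.0013 (SE 0.80, adjusted p = 0.999). The interaction of -2.56 (SE 0.96, adjusted p = 0.0766) did not pass by edgeR, but it did with DESeq2 (adjusted p = 0.0432) and without HSC3 DOX replicate 3 (-3.59, adjusted p = 0.00937).

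Of the short chain network collagens, COL8A1 and COL8A2 make type VIII collagen, known from vessels and the corneal endothelium. COL8A2 went from 3.37, 3.20 and 3.44 to 1.86, 1.78 and 1.58 CPM in CAL27 cells and from 3.26, 3.43 and 4.63 to 1.95, 1.04 and 0.767 in HSC3 cells. The groups were apart in both lines, with a wide spread among the HSC3 DOX libraries. It fell by 0.94 (SE 0.13, adjusted p = 5.15e-06) and by 1.58 (SE 0.32, adjusted p = 0.00342) on the log2 scale by edgeR.

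COL8A1 was 4.13 higher on the log2 scale in vehicle-treated HSC3 than CAL27 cells (SE 0.22, edgeR adjusted p = 2.07e-10). It had 0.507, 0.952 and 0.437 CPM under vehicle and 1.24, 1.47 and 1.56 under DOX in CAL27 cells, and 9.96, 8.82 and 8.22 and 12.02, 9.98 and 9.66 in HSC3 cells. The groups were apart in CAL27 cells and overlapped in HSC3 cells. The CAL27 rise was 1.19 (SE 0.25, adjusted p = 0.000667) on the log2 scale by edgeR, the HSC3 estimate 0.23 (SE 0.13, adjusted p = 0.235) and the interaction -0.96 (SE 0.29, adjusted p = 0.0294). Without CAL27 vehicle replicate 3 the CAL27 rise was 0.97, under a fold of 2. COL10A1, another chain of this group, did not pass in either line (adjusted p = 0.134 and 0.957).

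COL13A1, a transmembrane collagen of cell adhesion sites, had the rise with the smallest p in HSC3 cells. It had 5.07, 5.90 and 4.31 CPM under vehicle and 11.7, 14.4 and 12.7 under DOX there, and 1.22, 1.49 and 1.73 and 2.63, 1.77 and 1.84 in CAL27 cells. The HSC3 groups were far apart, and the CAL27 groups were apart by a small margin. It rose by 1.35 (SE 0.15, adjusted p = 5.57e-05) in HSC3 and by 0.49 (SE 0.18, adjusted p = 0.0345) in CAL27 cells on the log2 scale by edgeR, with an interaction of 0.86 (SE 0.25, adjusted p = 0.0233). The CAL27 rise was lost without vehicle replicate 1, vehicle replicate 2 or the first DOX library (adjusted p = 0.185, 0.0923 and 0.228), and in 1 fit of all 12 libraries (adjusted p = 0.0672). COL23A1 was at 16 counts or fewer in every library.

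COL28A1, a chain with von Willebrand factor A domains, had 389, 303 and 382 counts under vehicle and 281, 252 and 326 under DOX in CAL27 cells. In HSC3 cells it had 0, 8 and 6 and 46, 15 and 76. The HSC3 DOX libraries lay above, on few molecules by the estimate of counts per molecule. The log2 change was -0.20 (SE 0.12, adjusted p = 0.197) in CAL27 and 2.85 (SE 1.16, adjusted p = 0.0967) in HSC3 cells, neither past the test by edgeR fitted within the line. In HSC3 cells the change passed with DESeq2 (adjusted p = 0.0293) and in 1 edgeR fit of all 12 libraries (adjusted p = 0.00321). The interaction was 3.11 (SE 0.81, adjusted p = 0.0128).

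**Figure D4:**
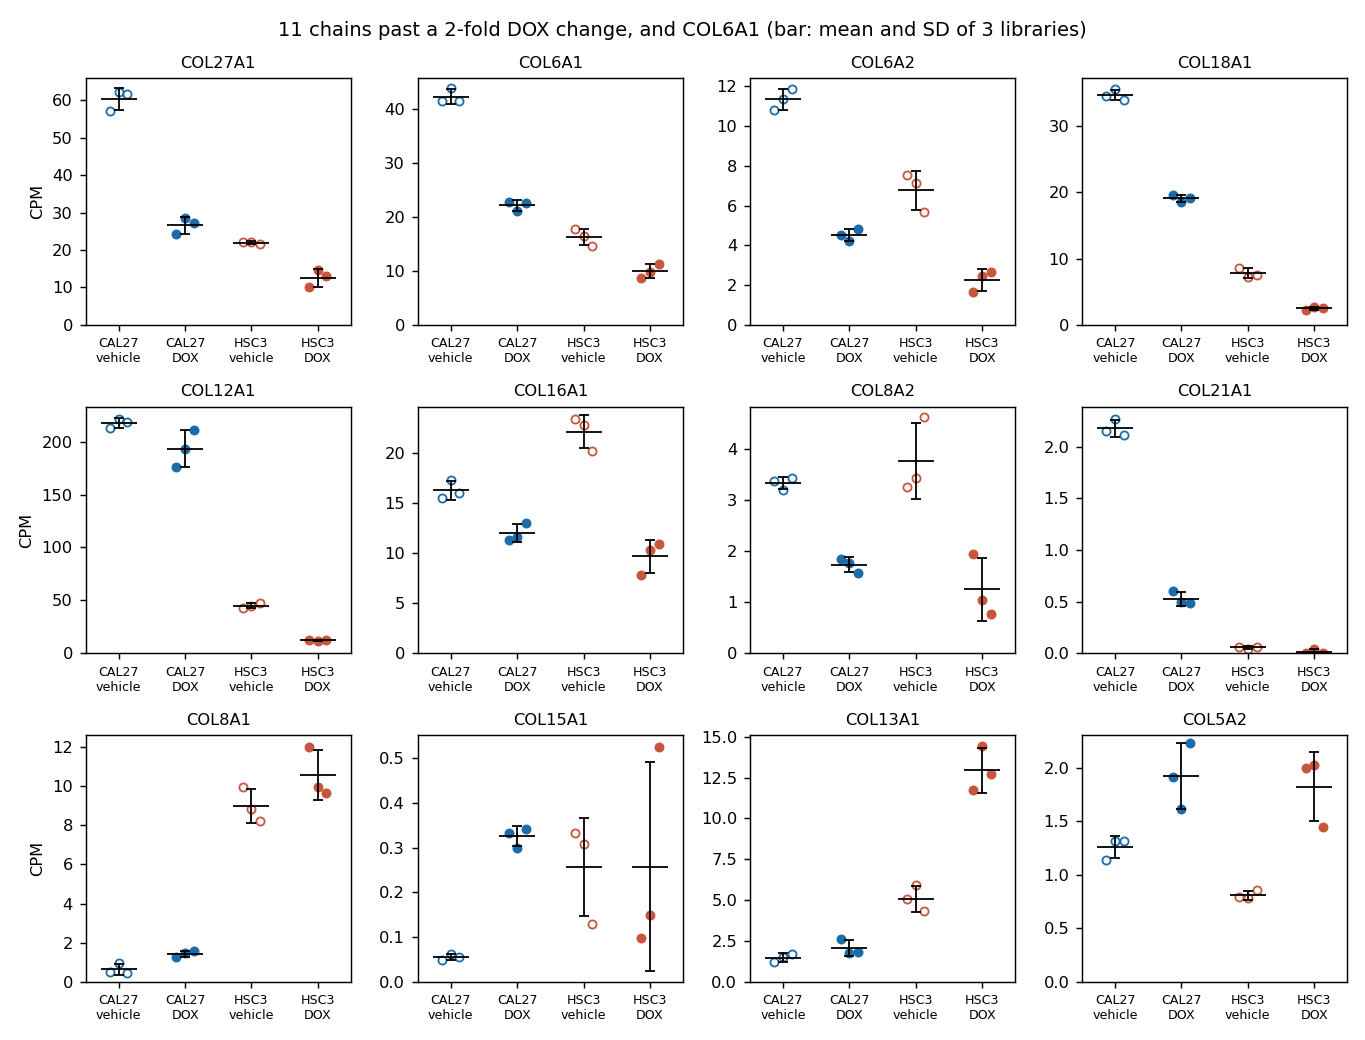
CPM in each library of the 11 chains past a fold of 2 with DOX in at least 1 line, and of COL6A1, with the mean and SD of 3 libraries per group on axes from 0. Open symbols are vehicle and filled symbols DOX, and the DOX libraries lie below the vehicle libraries of both lines for COL27A1, COL6A1, COL6A2, COL18A1, COL12A1, COL16A1 and COL8A2.

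The DOX responses of the 2 lines differed for 11 of 34 chains at an adjusted p under 0.05 in the interaction, with 6 lower and 5 higher in HSC3 than in CAL27 cells, against 12.3% and 8.25% of 20694 genes. The count of 6 dropped to 3 without CAL27 vehicle replicate 1 or 3, the second or the third CAL27 DOX library, or HSC3 vehicle replicate 1 or 2. With 1 library left out at a time, COL17A1 passed in 1, COL4A1 in 3, COL8A1 in 5 and COL13A1 in 8 of the 12 fits. COL12A1, COL16A1 and COL18A1 fell in both lines and fell further in HSC3 cells, and COL4A6 fell further in CAL27 cells. COL13A1 rose in both and further in HSC3 cells. For COL4A5, COL8A1 and COL17A1 the change passed the test in CAL27 cells alone, for COL1A1 in HSC3 cells alone, for COL4A1 in CAL27 cells with few HSC3 counts and for COL28A1 in neither.

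Collagen chains are hydroxylated and folded in the endoplasmic reticulum, trimmed outside the cell and crosslinked there. Of 32 genes of this work, 30 were tested in CAL27 cells, where 10 fell and 7 rose at an edgeR adjusted p under 0.05, against 21.8% and 22.6% of all genes. In HSC3 cells 29 were tested, 9 fell, and FKBP14, SEC24D and LOX rose, against 15.4% and 13%. Medians were -0.032 and -0.14 on the log2 scale. The only one past a fold of 2 in CAL27 cells was LOXL4, a lysyl oxidase, from 45.05, 46.7 and 50.4 to 10.02, 7.66 and 7.41 CPM, a fall of 2.51 (SE 0.10, adjusted p = 1.06e-08). In HSC3 cells it was under 1 CPM in every library.

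CRTAP, a partner of the prolyl 3-hydroxylase that modifies fibrillar chains, went from 168, 191 and 194 to 69.8, 72.5 and 70.4 CPM in HSC3 cells and from 112, 112 and 110.0 to 72.6, 73.4 and 72.7 in CAL27 cells, with no overlap. It fell by 1.38 (SE 0.070, adjusted p = 2.98e-07) and 0.61 (SE 0.038, adjusted p = 7.05e-11) on the log2 scale by edgeR. The other genes past a fold of 2 in HSC3 cells were P3H3, a prolyl 3-hydroxylase of low counts that fell by 1.80 (SE 0.34, adjusted p = 0.00242), and LOX.

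LOX, the lysyl oxidase that crosslinks fibrillar collagen, moved in opposite directions in the 2 lines. It had 17.4, 16.2 and 18.03 CPM under vehicle and 12.3, 12.4 and 12.9 under DOX in CAL27 cells, and 13.01, 12.6 and 14.5 and 39.6, 32.2 and 32.7 in HSC3 cells, with all groups apart. It fell by 0.46 (SE 0.065, adjusted p = 7.17e-06) in CAL27 and rose by 1.38 (SE 0.11, adjusted p = 5.19e-06) in HSC3 cells, an interaction of 1.85 (SE 0.13, adjusted p = 2.25e-07). FKBP14, a folding catalyst of the endoplasmic reticulum, rose by 0.41 (SE 0.040, adjusted p = 5.14e-08) and 0.84 (SE 0.094, adjusted p = 7.48e-05).

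**Figure D5:**
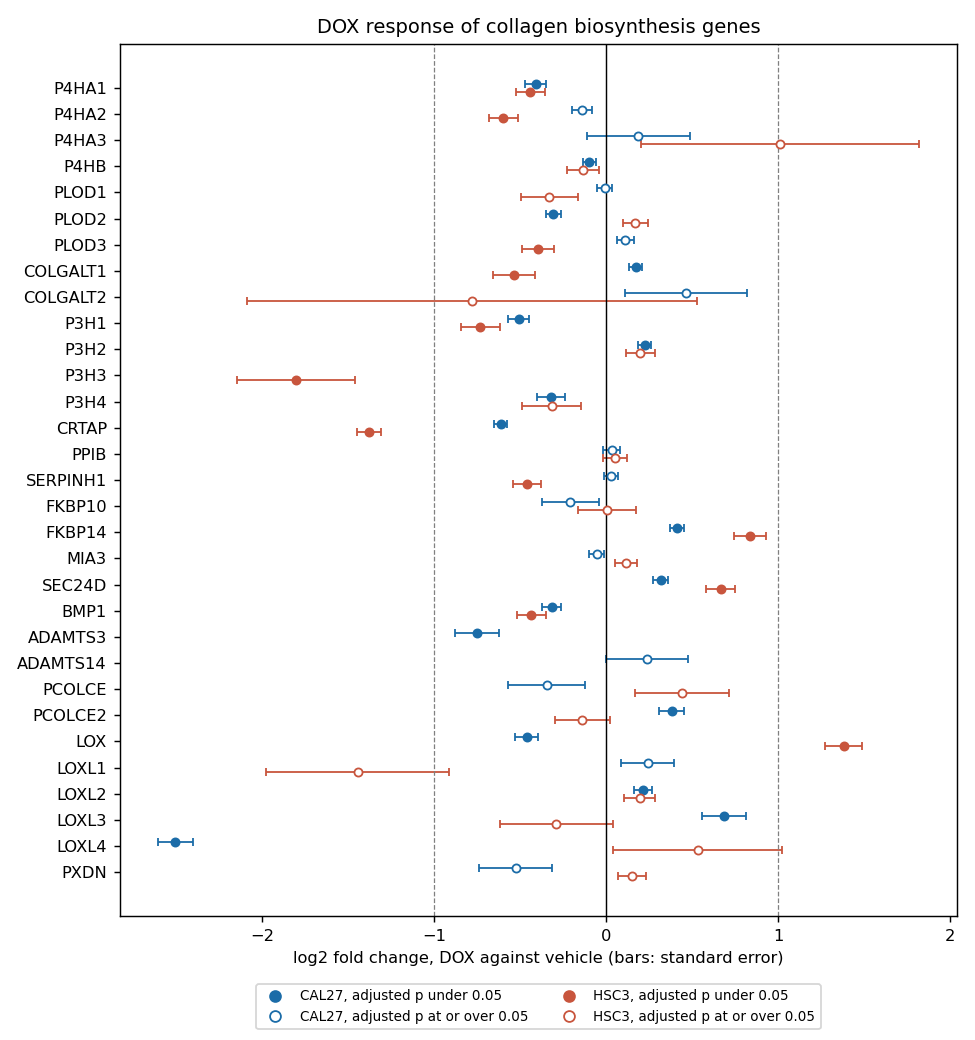
Log2 fold change with its standard error, DOX against vehicle, of 31 genes of collagen modification, folding, processing and crosslinking that were tested in at least 1 line. LOX lay at -0.46 in CAL27 and 1.38 in HSC3 cells, LOXL4 at -2.51 in CAL27 cells, and CRTAP at -0.61 and -1.38.

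Among 10 collagen receptors, 4 fell and 1 rose in CAL27 cells and 1 fell and 2 rose in HSC3 cells, with 8 tested in each. The shares of all genes were 21.8% and 22.6%, and 15.4% and 13%. MRC2, an endocytic receptor for collagen, had 575, 441 and 498 counts under vehicle and 131, 161 and 186 under DOX in CAL27 cells, and 349, 230 and 233 and 36, 14 and 42 in HSC3 cells. It fell by 1.54 (SE 0.13, adjusted p = 4.2e-09) and by 3.49 (SE 0.41, adjusted p = 9.89e-05), and was named after its values were seen, as was DDR2, a collagen-binding tyrosine kinase that rose by 1.53 (SE 0.41, adjusted p = 0.0171) in HSC3 cells on 72, 24 and 91 and 324, 230 and 123 counts. Without HSC3 vehicle replicate 1 or 2 the adjusted p of DDR2 was 0.0549 and 0.062. ITGA2, which pairs with ITGB1 in the main epithelial collagen receptor, changed by -0.23 (SE 0.046, adjusted p = 0.000378) in CAL27 and 0.43 (SE 0.065, adjusted p = 0.000508) in HSC3 cells in log2 units by edgeR. ITGB1 changed by 0.46 (SE 0.037, adjusted p = 4.2e-09) and 0.0028 (SE 0.054, adjusted p = 0.979), and DDR1, a tyrosine kinase switched on by collagen, by -0.67 (SE 0.047, adjusted p = 8.87e-10) and -0.0036 (SE 0.11, adjusted p = 0.988). ITGA1, another receptor of the list, changed by -0.31 (SE 0.066, adjusted p = 0.000672) in CAL27 and -0.11 (SE 0.14, adjusted p = 0.631) in HSC3 cells by edgeR. COL17A1 and COL7A1 have partners in the hemidesmosome and the laminin below it. Among them PLEC, the plakin that binds keratin, changed by 0.71 (SE 0.066, adjusted p = 4.5e-06) and 0.27 (SE 0.15, adjusted p = 0.221), the latter 0.45 without HSC3 DOX replicate 1 (edgeR adjusted p = 2.65e-06). The laminin chain LAMA3 rose by 0.48 (SE 0.045, adjusted p = 3.71e-08) in CAL27 cells and fell by 0.30 (SE 0.058, adjusted p = 0.00263) in HSC3 cells. ITGA6 fell by 0.19 (SE 0.044, adjusted p = 0.00147) and 0.46 (SE 0.058, adjusted p = 0.00016) on the same scale.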

How the data were processed

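Triplicate cultures of both tet-MUC1shRNA lines gave TRIzol RNA and TruSeq Stranded mRNA libraries. Per the submitters' processing notes, FastQC 0.11.9, STAR 2.7.9a, Subread 2.0.1 with featureCounts and the GRCh38 build were used. The authors deposited whole-number counts per gene symbol, not normalized, in 1 table for each line. The gene annotation and the strand setting of the counting are not given in the sources used here. In the CAL27 table the DOX columns are numbered 4 to 6, so these were mapped to the group without a replicate number.

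Counts were fitted within each line with edgeR 4.0.16 in R 4.3.3 (TMM, filterByExpr at a minimum of 10 counts and 15 in total, robust quasi-likelihood test). P-values were adjusted by Benjamini-Hochberg over every gene tested. Baseline differences and the interaction of line and DOX came from 1 fit of 12 libraries. A gene called at a fold over 2 also had an adjusted p under 0.05. An exact permutation test of 3 against 3 libraries cannot go below 0.1 and was not used. SE is the absolute log2 change over the square root of F. RPKM is TMM-normalized CPM per kilobase of merged exons of GENCODE v44 on GRCh38, which may differ from the annotation counted. The counts per molecule follow from the share of genes without a count among those where 8 to 16 were expected. This takes absent counts as sampling of molecules alone, so other spread between libraries would raise the estimate. Against groups in which each library had 3 counts or fewer, folds were left out.

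The members and gene lists were chosen with earlier results of these data known. Chains described one by one passed a fold of 2 with DOX in a line, were among the 10 highest in RPKM in a line with vehicle, or passed the interaction with a difference over 1. COL1A1 and COL1A2, and P3H3, MRC2 and DDR2 among the other genes, were named after their values were seen. Genes of other lists are named up to 4 per list by largest change among those whose mean log2 CPM was 3 or more. A gene that this rule names, and the counts over its list, are not reported here. Promoter windows are from RefSeq, read with pandas 2.3.3 in Python 3.11.15. DESeq2 1.42.0, other scalings and filters, another fold threshold, counts divided by counts per molecule, a replicate block and each library left out were alternatives. The fits were tested on simulated data in which 200 genes per comparison changed by a log2 of 1.5. Of these, 85% were recovered in CAL27 cells, 73% in HSC3 cells, 53% in the interaction and 73% between the vehicle-treated lines. Unchanged genes called numbered 17, 16, 2 and 7, beside 170, 146, 106 and 146 recovered. A chain that did not pass may therefore still have changed.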

Additional observations from a re-analysis of the deposited data

Results flagged for a closer look

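For 11 collagen chains the DOX response differed between HSC3 and CAL27 cells in the interaction test of edgeR, given as the HSC3 minus the CAL27 log2 change. It was -1.72 (SE 0.097, adjusted p = 2.99e-08) for COL12A1, -0.80 (SE 0.12, adjusted p = 0.00028) for COL18A1 and -0.76 (SE 0.16, adjusted p = 0.00288) for COL16A1, all of which fell further in HSC3 cells. For COL4A5 it was 0.76 (SE 0.082, adjusted p = 1.16e-05) and for COL4A6 0.60 (SE 0.10, adjusted p = 0.000627), and in CAL27 cells both fell, while COL4A6 fell less and COL4A5 had an estimate near 0 in HSC3 cells. For COL1A1 it was 0.83 (SE 0.19, adjusted p = 0.00544) and for COL13A1 0.86 (SE 0.25, adjusted p = 0.0233), both higher with DOX in HSC3 cells.

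It was also -0.20 (SE 0.069, adjusted p = 0.048) for COL17A1, -0.96 (SE 0.29, adjusted p = 0.0294) for COL8A1, -1.94 (SE 0.59, adjusted p = 0.0308) for COL4A1 and 3.11 (SE 0.81, adjusted p = 0.0128) for COL28A1. The values of COL4A1 and COL28A1 rest on at most 42 and 76 counts in an HSC3 library, which are few molecules by the estimate of counts per molecule. COL1A1, COL12A1, COL16A1, COL18A1, COL4A5, COL4A6 and COL28A1 passed in each of the 12 fits that left out 1 library. COL13A1 passed in 8, COL8A1 in 5, COL4A1 in 3 and COL17A1 in 1 of the 12.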

How the results depend on the processing

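The alternatives covered the 20 chains described by rule and 16 further genes named in the text, without ITGA1. No DOX change of these genes tested in CAL27 cells turned its direction under the alternatives run. Neither did the vehicle difference between the lines of the 20 chains. At a fold over 1.5 in place of 2, the lower chains went from 3 to 8 in CAL27 and from 5 to 8 in HSC3 cells, by the threshold's own construction. Leaving out 1 library at a time gave 3 to 4 lower and 1 to 2 higher chains in CAL27 cells, the latter 1 without CAL27 vehicle replicate 3. In HSC3 cells it gave 5 to 6 lower and 2 higher chains. In the interaction it gave 3 to 9 lower chains, and 3 without CAL27 vehicle replicate 1 or 3, the second or the third CAL27 DOX library, or HSC3 vehicle replicate 1 or 2, and it gave 4 to 7 higher chains. The cause of these shifts was not tested.

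Estimates near 0 in HSC3 cells turned direction. COL15A1 was -0.024 with library totals and -0.0031 without a filter, and from -1.06 to 0.39 with 1 library left out. COL17A1 was -0.012 with library totals and from -0.020 to 0.068 with 1 library left out. COL4A5 was 0.0011 with DESeq2 size factors and 0.0012 with DESeq2, and from -0.034 to 0.013 with 1 library left out. ITGB1 was -0.023 with library totals and from -0.010 to 0.026 with 1 library left out, and DDR1 was 0.0059 with DESeq2 size factors and with DESeq2 and from -0.089 to 0.13. In the interaction COL21A1, with few HSC3 counts, was -0.020 with DESeq2 and from -3.86 to 0.67, and COL4A2 from -2.77 to 1.33, with 1 library left out.

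HSC3 libraries of the same number correlated at -0.206, 0.348 and -0.343 in their deviations from the group means. With 3 libraries per group these deviations depend on each other, so they cannot decide whether the numbers pair the cultures. The CAL27 DOX columns carry no replicate number, and no paired fit was made there. With the replicate block the HSC3 counts stayed at 5 lower and 2 higher chains and the interaction at 6 and 5. The block moved COL15A1 in HSC3 cells to -0.34, COL5A1 to 0.25 with an adjusted p of 0.0569, and the COL21A1 interaction to -0.16. Library totals gave COL5A1 in HSC3 cells an adjusted p of 0.0689, and the COL17A1 interaction missed the threshold with DESeq2 size factors, library totals, no filter and counts per molecule (0.0562 to 0.0978). The COL4A1 interaction missed it without a filter (0.151) and with DESeq2 (0.24). COL4A1, COL4A2, COL15A1, COL21A1 and COL28A1 rest on few counts in HSC3 cells, which limits the precision of their changes.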
